A study of Mus musculus with 8 samples.

Results

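The replication-dependent histone genes were taken as all genes whose symbol starts with Hist1h, Hist2h, Hist3h or Hist4h, which gave 70 of the 54532 genes in the count files. By the histone they encode, 6 belonged to the linker histone H1, and 20, 19, 12 and 13 to the core histones H2A, H2B, H3 and H4. By locus, 56 were Hist1 genes on chromosome 13, 10 were Hist2 genes on chromosome 3, 3 were Hist3 genes on chromosome 11 and 1 was Hist4h4 on chromosome 6.

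These genes supply the histones that package newly copied DNA, and in most cell types their transcripts accumulate during S phase. Their messages are the known exception among mRNAs in lacking a poly(A) tail. They have no introns as a rule, and the message is cut shortly after a conserved stem-loop in its 3′ end, which the protein SLBP binds, under guidance of the U7 snRNP. A minority of the message of some members is polyadenylated at a site further downstream, and such copies are the ones that selection on poly(A) keeps.

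The RNA came from 4T1, a mammary tumor line of BALB/c mice. The cells stably carried an shRNA plasmid, either scramble (the control) or shMCT-1, which targets Mcts1, the gene of the translation factor MCT-1. All cells were kept in puromycin, and each background was treated with the IL-6 receptor antibody anti-IL-6R at 100 ng/ml for 48 h or with IgG. Each of the 4 combinations of background and treatment, written as shMCT-1 + IgG and so on, had 2 libraries of poly(A)-selected RNA. The shMCT-1 background rests on 1 shRNA, and whether the transfected cells were a clone or a pool is not given in the sources used here, so that a difference between the transfected lines and an effect of the shRNA cannot be told apart. Nothing says that the 2 libraries of a group came from separate cultures, and p-values then measure the spread between these libraries, which may be technical.

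Library totals ranged from 19839299 to 33063570 counts, so that 1 CPM, a count per 1000000 of the library total, stood for 19.84 to 33.06 counts. Mcts1 was at 13.4 ± 1.49 CPM in the scramble libraries and at 6.03 ± 0.774 in the shMCT-1 libraries (SD, n = 4 each), with no overlap. Of the 6 epithelial markers, Krt8, Krt18, Krt7 and Cdh1 were abundant in both backgrounds, while Epcam was at 4.37 and 51.3 CPM and Krt19 at 18.4 and 0.552 in scramble and shMCT-1. Of the 3 receptors whose absence defines such tumors, Pgr was at 0 in all 8 libraries, Esr1 at 3.09 and 4.46 CPM and Erbb2 at 57.0 and 65.9. The 6 markers of leukocytes, macrophages, T cells and endothelium summed to 2.85 to 3.73 CPM in the scramble and 7.24 to 8.15 in the shMCT-1 libraries, with Adgre1 and Cd3e at 0 throughout and Ptprc at no more than 0.137. Of these 6 genes, 2 were tested and both were higher in shMCT-1, Cd68 by a log2 value of 1.12 and Cdh5 by 4.95. Cdh5 was at no more than 0.124 CPM in the scramble and 1.46 in the shMCT-1 libraries. Only shMCT-1 libraries put it above 1 CPM, the level a gene had to pass in at least 2 libraries to be tested. The part of these markers in the results was not tested.

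A search of the annotated transcripts (GENCODE M21, GRCm38) after the stop codon found the 16-base stem-loop in 46 of the 67 protein-coding members. Many members without a match, such as Hist1h2ai, Hist1h3h and Hist1h4k, are annotated only to the stop codon. In these there was no sequence to search, so that a missing match does not mean a missing stem-loop. The search asked for GGNNNTNNNNANNNCC on the transcript strand with the 6 bases on either side of the loop paired. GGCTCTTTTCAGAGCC was shared by 26 members of H1, H2A, H2B and H3, and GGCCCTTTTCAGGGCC by 7 members of H4. Messages cut at the stem-loop carry no poly(A) tail and those that run past it can. The sites are shown for the highest members with a stem-loop, and for Hist1h3g, which is lower in level than several members not shown. The stem-loop is in capitals between its flanks.
Hist1h2ap: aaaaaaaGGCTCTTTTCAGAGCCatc
Hist1h1c: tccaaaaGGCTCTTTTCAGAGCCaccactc
Hist1h4i: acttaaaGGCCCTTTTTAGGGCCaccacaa
Hist2h3c2: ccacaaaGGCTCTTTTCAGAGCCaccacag
Hist3h2a: caccaaaGGCTCTTTTCAGAGCCacccaca
Hist1h1e: acccaaaGGCTCTTTTCAGAGCCacccaca
Hist1h3d: ccccaaaGGCTCTTTTCAGAGCCacccccg
Hist1h3g: ctttaaaGGCTCTTCTTAGAGCCacccatc
These genes lie at chr13:21833026-21833507 (minus strand), chr13:23738808-23740367 (plus), chr13:22040636-22041362 (minus), chr3:96238108-96239127 (minus), chr11:58954685-58956830 (plus), chr13:23620629-23622558 (minus), chr13:23575763-23577011 (plus) and chr13:23535422-23535951 (plus), and the sites are in their 3′ UTRs. The stem-loop of Hist1h2ap and that of Hist1h1c had the same 16 bases, but the annotated transcript of Hist1h2ap ended 3 bases past it and that of Hist1h1c 840 bases past it. Hist1h4i, which differs from the common H4 form in its loop, was annotated for 330 bases beyond its stem-loop, and Hist3h2a for 1643 bases.

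Of the 67 protein-coding members, 27 were annotated for at least 100 bases past the stem-loop, or past the stop codon where no stem-loop was found, and 40 for fewer. A poly(A) signal, AATAAA or ATTAAA, stood anywhere in that stretch in 20 of the 27 and in 1 of the 40. The stretch searched is longer in the 27 by definition, and in many of the 40 there was none. The counts therefore do not compare how often the classes carry a signal. Hist2h2be, the H2B gene at chr3:96221119-96223738 (plus strand), had no match to the stem-loop and the longest annotated stretch without one, 2192 bases after the stop codon.

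The upstream sequences, taken from RefSeq (GRCm38.p6), matched 62 members. CCAAT, counted on both strands in the 250 bases before the start, was found in 82.3% of them and in 33.9% of all promoters in the table, and TATAAA in 46.8% and 12.4%. ATTTGCAT, the octamer, stood in 22.6% of the members and 1.60% of all promoters, in 7 of 18 H2A and 7 of 16 H2B genes and in none of the H1, H3 and H4 genes. CCAAT was present in all 6 H1, all 18 H2A and all 16 H2B genes, in 8 of 10 H3 and in 3 of 12 H4 genes. A match describes these letters and is not evidence of binding. The 100 bases before the start are shown for 4 genes that the results turn on, with matches to these motifs in capitals (ATTGG is CCAAT on the other strand).
Hist1h2ap: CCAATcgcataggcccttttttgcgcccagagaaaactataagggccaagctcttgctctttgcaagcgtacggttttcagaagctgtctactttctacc
Hist1h1c: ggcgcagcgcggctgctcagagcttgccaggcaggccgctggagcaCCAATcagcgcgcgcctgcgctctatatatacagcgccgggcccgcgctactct
Hist1h4i: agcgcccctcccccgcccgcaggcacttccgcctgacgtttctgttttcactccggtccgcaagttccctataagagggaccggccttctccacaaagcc
Hist2h2ac: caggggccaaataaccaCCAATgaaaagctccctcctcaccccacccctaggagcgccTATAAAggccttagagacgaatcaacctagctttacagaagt
They lie at chr13:21833476-21833575 (minus strand), chr13:23738707-23738806 (plus), chr13:22041363-22041462 (minus) and chr3:96220881-96220980 (minus). The last faces Hist2h2be, an H2B gene, across 238 bases.

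In these poly(A)-selected libraries, 58 of the 70 members were above 1 CPM in at least 1 library, 56 in at least 2 libraries and 25 in all 8. The mean over the 8 libraries reached 1 CPM for 50 members, 5 CPM for 8 members and 10 CPM for 4 members, and 3 members, Hist1h1t, Hist1h2aa and Hist2h3c1, were at 0 in all 8. The median of all 70 members was 1.52 CPM, compared with 0.776 for all other protein-coding genes. Among the tested genes alone, the median was 1.74 CPM for the 56 members and 27.1 for all. Hist1h1t, Hist1h2aa and Hist1h2ba are known as testis histones, and Hist1h2ba was above 0 in 1 library, at 0.0517 CPM.

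**Figure D1:**
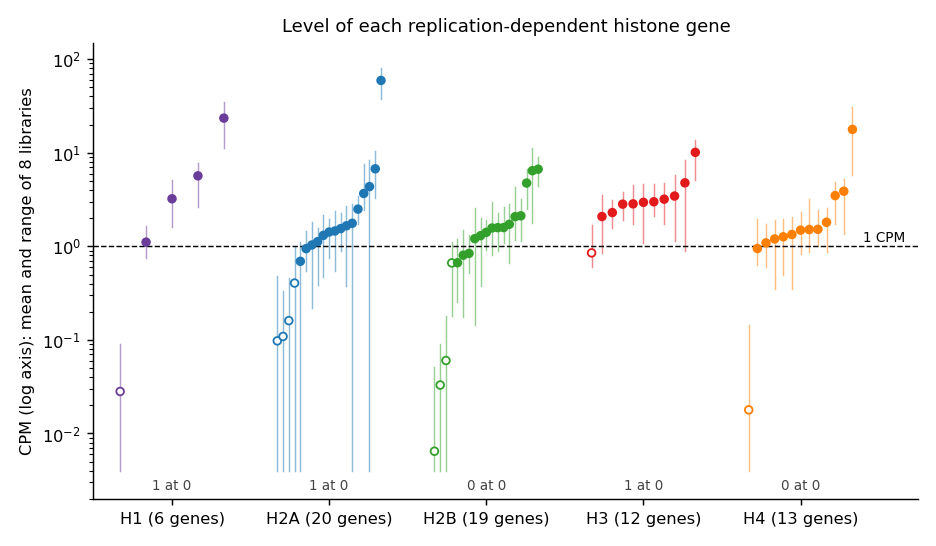
CPM of the 67 members above 0 on a log axis by histone family (the 3 at 0 are given as counts at the foot), with the mean of the 8 libraries as a point and the range as a line. Filled points are the 56 members tested and open points those that were not, lines that reach 0 are cut at the lower end, and the dashed line marks 1 CPM, around which most members lie.

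The number of members above 1 CPM was 53 and 47 in the scramble + IgG libraries, 51 and 46 in scramble + anti-IL-6R, 48 and 33 in shMCT-1 + IgG, and 35 and 49 in shMCT-1 + anti-IL-6R. The 2 libraries of each shMCT-1 group lay far apart, and the lower library was replicate 2 under IgG and replicate 1 under anti-IL-6R. Of the 14 members that were not tested, Hist1h3a had the highest mean, 0.851 CPM, and 9 others were at a mean of 0.405 CPM or less without being at 0.

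Per kb of exon, which allows genes to be compared, Hist1h2ap stood far above the other members at 122.9 CPM per kb, followed by Hist1h4i at 24.4, Hist1h1c at 15.03 and Hist2h3c2 at 9.90. Hist1h2ap alone held 21.1% to 28.7% of the summed CPM of all members in each library, and with Hist1h1c and Hist1h4i 31.2% to 47.2%. The member with the highest level was thus one whose annotated message ends at its stem-loop, while Hist1h1c, Hist1h4i and Hist2h3c2 are annotated far past theirs.

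Reads of these genes are hard to assign, because the coding sequences are nearly alike. Of the 496 values above 0 for members, 435 were not whole numbers (87.7%, against 29.6% of the values of all genes), which shows reads divided between genes. In 14 members fewer than 20% of the 100-base windows of the transcript were absent from every other gene, and 7 members had all windows to themselves. Hist1h2ap shared 92.2% of its windows with Hist1h2ao, which was listed at no more than 0.481 CPM, so that the pair together, at 73.1 ± 5.71 CPM in scramble and 45.5 ± 6.98 in shMCT-1 (SD, n = 4 each), is the safer quantity. Hist2h2aa2 was identical in all windows to Hist2h2aa1. Hist2h3c1, at 0 throughout, lies within the exons of Gm20634 on the same strand, and Hist2h2aa1 shares 529 exon bases with other genes on its strand, Gm20634 among them.

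In shMCT-1 compared with scramble across both treatments, 18 of the 56 tested members were lower and 2 were higher (edgeR quasi-likelihood test, adjusted p under 0.05). Among all 12704 tested genes 69% were called, 34% lower and 35% higher, so that a lower call was as common among the members as among all genes and a higher call was rarer. Whether the members stand apart from other genes was not tested. The 56 members had a median log2 fold change of -0.42, with 39 below 0 and 17 above, and the median of all tested genes was 0.01. It was -0.27 without shMCT-1 + IgG replicate 2, and from -0.28 to -0.60 without any other library. In 16 members all 4 shMCT-1 libraries were below all 4 scramble libraries, as for 31.4% of all tested genes, and in no member were all 4 above, as for 33%. Of the tested members, Hist1h2ac, Hist1h2ah, Hist1h2bl and Hist1h2bp were above 1 CPM in scramble libraries alone, and Hist1h2ag, Hist1h2bm and Hist1h4c in shMCT-1 libraries alone, and 47 passed the filter in either background by itself, 16 of them called.

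**Figure D2:**
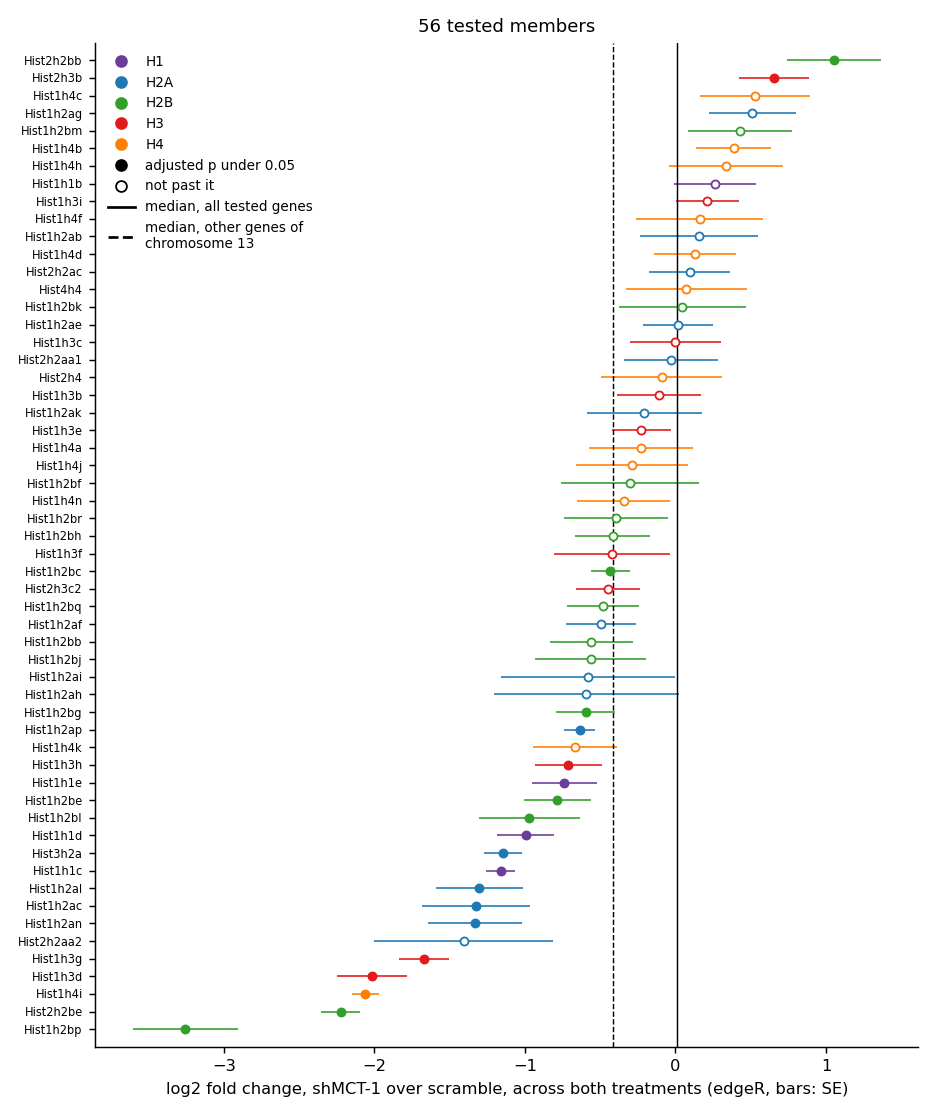
Log2 fold change (shMCT-1 over scramble, across both treatments, edgeR) with its SE for the 56 tested members, ordered by size and colored by family, filled where the adjusted p was under 0.05. The solid line marks the median of all tested genes (0.01) and the dashed line that of the other genes of chromosome 13 (-0.42), and the values run from -3.26 for Hist1h2bp to 1.05 for Hist2h2bb.

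Most members lie on chromosome 13, where other genes were also lower. The 481 other tested genes of chromosome 13 showed a median of -0.42 (log2 fold change), and 61.1% of these were called lower, while the 46 tested members on this chromosome had a median of -0.43 and 34.8% called lower. Nearest to the members, the 7 other tested genes within the stretch that holds the histone groups had a median of -0.19, and 3 of them were called lower. On the other 19 chromosomes the medians of the genes that are not members ranged from -0.37 to 0.21. Of the 10 tested members on other chromosomes, 2 were called lower and 2 higher, and their median was -0.06. The chromosome's own shift was the same within IgG (-0.40) and within anti-IL-6R (-0.40). Its part in the members' values was not tested.

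**Figure D3:**
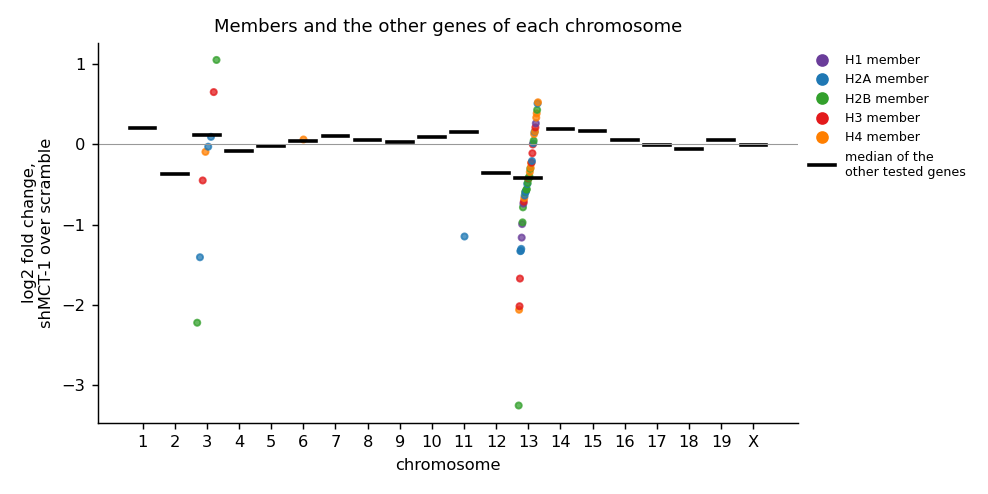
Log2 fold change (shMCT-1 over scramble, across both treatments) of each tested member by chromosome, as points colored by family, and the median of the other tested genes of the chromosome as a bar. On chromosome 13 the bar lies at -0.42, and the members scatter around it from -3.26 to 0.53.

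The linker histone H1 binds the DNA between nucleosomes. Of 4 tested H1 members, 3 were lower in shMCT-1 and the fourth, Hist1h1b, was not called, against 34% lower and 35% higher among all tested genes. Hist1h1c was at 34.9, 29.8, 32.1 and 34.1 CPM in the scramble libraries (IgG replicates 1 and 2, then anti-IL-6R replicates 1 and 2, an order kept below) and at 14.7, 11.2, 15.8 and 15.1 in the shMCT-1 libraries. The groups did not overlap, and the log2 fold change was -1.16 ± 0.10 (SE, adjusted p = 1.99e-06). Hist1h1e was at 7.85, 6.55, 7.39 and 6.85 CPM in scramble and at 4.41, 2.63, 3.29 and 6.37 in shMCT-1. Its highest shMCT-1 library came close to the lowest scramble library, and the log2 fold change was -0.74 ± 0.22 (adjusted p = 0.0105). Hist1h1e shares 496 exon bases on its strand with Hist1h2be, and reads in that stretch fit either gene. Hist1h1d, the longest member by exon, fell by 0.99 on the log2 scale (adjusted p = 0.000764).

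H2A and H2B form the dimers on the outside of the nucleosome core, and 5 of 15 tested H2A and 6 of 15 tested H2B members were lower, with 1 H2B member higher, which is near the 34% of all tested genes called lower and under the 35% called higher. Hist1h2ap was at 71.5, 81.3, 71.9 and 67.6 CPM in scramble and at 54.7, 37.4, 45.9 and 43.7 in shMCT-1. All shMCT-1 libraries were lower, and the log2 fold change was -0.64 ± 0.11 (adjusted p = 0.000287), compared with -0.42 for the median of other genes on the chromosome. Hist3h2a, on chromosome 11, was at 9.17, 8.82, 9.04 and 10.5 CPM in scramble and 4.42, 3.31, 4.90 and 3.79 in shMCT-1. The groups did not overlap (-1.14 ± 0.13, adjusted p = 1.7e-05). It shares 708 exon bases on its strand with Trim17, which was at no more than 0.286 CPM. Hist1h2an, Hist1h2ac and Hist1h2al were also lower, by log2 values of -1.33, -1.33 and -1.30 at a mean of 1.66, 1.03 and 1.46 CPM. Of these, Hist1h2ac and Hist1h2al passed the filter through the scramble libraries alone.

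Hist2h2be fell the most among the members with whole counts. It was at 10.6, 11.3, 10.6 and 10.1 CPM in scramble and at 2.52, 1.79, 2.42 and 2.09 in shMCT-1. The groups were well apart, with a log2 fold change of -2.22 ± 0.13 (adjusted p = 1.95e-07), and on chromosome 3 the other genes had a median of 0.11. All its 100-base windows were its own and all of its 8 counts were whole numbers. Hist1h2bp had the lowest log2 fold change, -3.26 ± 0.35 (adjusted p = 1.27e-05), and was at 2.60, 1.55, 2.57 and 2.04 CPM in scramble and at 0.167, 0.143, 0.167 and 0.423 in shMCT-1. It passed the filter through the scramble libraries alone.

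Hist1h2bc was at 8.99, 7.30, 7.43 and 7.43 CPM in scramble and at 6.11, 4.43, 5.85 and 5.85 in shMCT-1, with a log2 fold change of -0.43 ± 0.13 (adjusted p = 0.0117). The groups did not overlap, and the median of the chromosome's other genes was -0.42. Hist1h2bg was at 6.69, 3.88, 6.07 and 6.50 CPM in scramble and at 4.25, 2.48, 4.07 and 4.00 in shMCT-1. The ranges overlapped through replicate 2 of the scramble + IgG group, the log2 fold change was -0.60 ± 0.20 (adjusted p = 0.0188), and the call was lost when scramble + IgG replicate 1 (-0.43) or shMCT-1 + IgG replicate 2 (-0.46) was left out. Hist1h2be and Hist1h2bl fell by 0.78 and 0.97 on the log2 scale, the latter at a mean of 0.668 CPM, and its call was lost without any of 4 libraries (scramble + IgG replicate 1, scramble + anti-IL-6R replicate 1, shMCT-1 + IgG replicate 1 or shMCT-1 + anti-IL-6R replicate 1).

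Hist2h2bb, also on chromosome 3, was the member with the highest log2 fold change, 1.05 ± 0.31 (adjusted p = 0.0109). It was at 1.76, 1.40, 1.20 and 1.16 CPM in scramble and at 3.07, 1.60, 2.04 and 4.35 in shMCT-1, and shMCT-1 + IgG replicate 2 lay within the scramble range. It shares 226 exon bases with Gm42743 on its strand. Hist1h4c, with the third highest value, was at 0.987, 0.690, 0.765 and 0.728 CPM in scramble and at 1.17, 0.633, 0.636 and 1.97 in shMCT-1, and was not called (0.53 ± 0.36, adjusted p = 0.22).

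H3 and H4 form the tetramer at the center of the nucleosome. Of 10 tested H3 members 3 were lower and 1 higher, and of 12 tested H4 members 1 was lower, beside 34% lower and 35% higher for all tested genes. That H4 member, Hist1h4i, had the lowest adjusted p of all members. It was at 30.5, 26.3, 28.6 and 29.9 CPM in scramble and at 7.54, 6.97, 6.47 and 5.80 in shMCT-1. The groups were far apart, with a log2 fold change of -2.06 ± 0.09 (adjusted p = 2.52e-08), while the other 11 tested H4 members were not called and the H4 median was -0.01. In 84.9% of its windows Hist1h4i differed from every other gene, and it was annotated past its stem-loop. Hist1h4n was at 5.26, 4.74, 4.22 and 3.36 CPM in scramble and at 3.75, 1.37, 3.37 and 4.99 in shMCT-1, with overlap and no call (-0.34 ± 0.31, adjusted p = 0.339).

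Hist1h3d was at 8.39, 7.88, 7.18 and 7.28 CPM in scramble and at 2.17, 0.890, 1.77 and 2.57 in shMCT-1 (-2.02 ± 0.23, adjusted p = 2.14e-05). Hist1h3g moved alike, from 5.30 ± 0.456 to 1.60 ± 0.329 CPM (SD, n = 4 each), a log2 fold change of -1.67 ± 0.17 (adjusted p = 7.14e-06). The groups of both genes were apart. Hist2h3c2 was at 13.7, 11.7, 11.7 and 10.2 CPM in scramble and at 10.2, 5.12, 6.72 and 11.4 in shMCT-1. These ranges overlapped, and the log2 fold change of -0.45 ± 0.21 was not called (adjusted p = 0.0818).

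Hist2h3b was the other member called higher, at 3.36, 1.71, 2.91 and 2.08 CPM in scramble and at 4.05, 2.77, 3.94 and 4.69 in shMCT-1 (0.65 ± 0.23, adjusted p = 0.0277). The ranges overlapped, and the call was lost without any of 4 libraries (scramble + IgG replicate 2, scramble + anti-IL-6R replicate 2, shMCT-1 + IgG replicate 1 or shMCT-1 + anti-IL-6R replicate 2), with values of 0.52 to 0.59. Of its windows 77.1% were shared with Gm20634, a gene on chromosome 3. Gm20634 itself went from 7.72 ± 0.315 to 0.654 ± 0.524 CPM (SD, n = 4 each), a log2 fold change of -3.52 ± 0.31 (adjusted p = 3.33e-06). It passed the filter through the scramble libraries alone. Gm20634 also holds 61.6% of the windows of Hist2h3c2 and 88.3% of those of Hist2h2aa1, and how reads were divided between it and these members was not tested.

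Hist2h2aa2 was at 8.44, 4.97, 5.91 and 5.94 CPM in scramble and at 3.08, 0, 1.36 and 5.07 in shMCT-1, and its log2 fold change of -1.41 ± 0.60 was not called (adjusted p = 0.0551). Hist2h2aa1 was at 2.46, 7.53, 2.83 and 2.52 CPM in scramble and at 3.64, 3.89, 2.79 and 3.74 in shMCT-1 (-0.03 ± 0.31, adjusted p = 0.943). It was highest in scramble + IgG replicate 2, the scramble library in which its copy was lowest. Summed, the pair was at 10.9, 12.5, 8.73 and 8.46 CPM in scramble and at 6.72, 3.89, 4.15 and 8.81 in shMCT-1, with overlap between the groups.

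**Figure D4:**
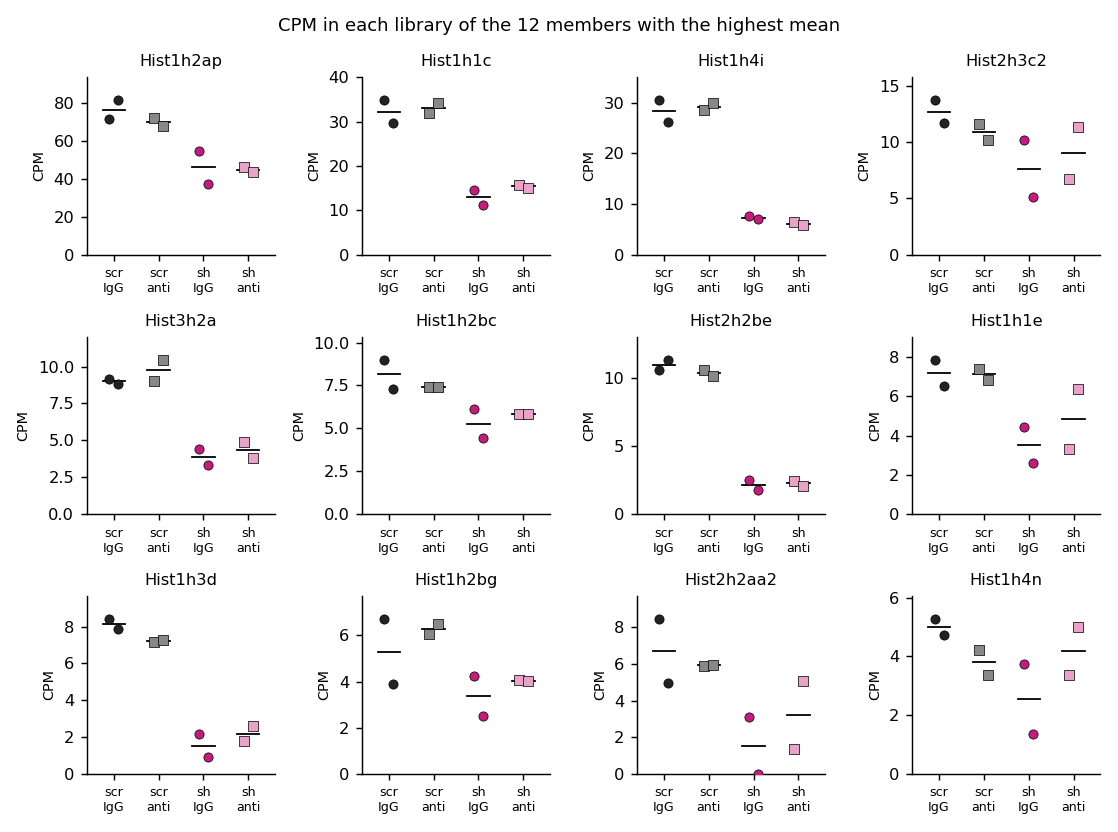
CPM in each library for the 12 members with the highest mean, with an axis from 0 in each panel and a bar at the mean of the 2 libraries (scr, scramble, sh, shMCT-1, anti, anti-IL-6R). Hist1h4i, Hist2h2be, Hist1h3d and Hist1h1c are far lower in all 4 shMCT-1 libraries, while Hist2h3c2, Hist1h2bg, Hist1h4n and Hist2h2aa2 overlap between the backgrounds.

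Because reads can be divided between near-identical copies, the members were also summed by family, and the 5 sums were tested in place of their members in a fit of all genes. All 5 sums were lower in shMCT-1 across both treatments, though those of H1 and H4 depended on which members were summed. The log2 fold change was -1.02 ± 0.11 for H1 (adjusted p = 1.02e-05), -0.64 ± 0.10 for H2A (0.000209), -0.69 ± 0.15 for H2B (0.00204), -0.50 ± 0.16 for H3 (0.0178) and -0.89 ± 0.16 for H4 (0.000604). The sum over all members was 323, 291, 287 and 282 CPM in the scramble libraries and 195, 130, 164 and 207 in the shMCT-1 libraries, with no overlap, and it made up 0.0307% of all counts in scramble + IgG and 0.0163% in shMCT-1 + IgG. Without Hist1h2ap, Hist1h1c and Hist1h4i the scramble libraries summed to 150 to 186 CPM and the shMCT-1 libraries to 74.7 to 142. Without Hist1h4i the other H4 members summed to 25.3, 19.1, 19.5 and 16.9 CPM in scramble and to 19.6, 11.1, 15.3 and 29.7 in shMCT-1, with overlap, so that the H4 fall came with Hist1h4i. Over the members with at least 90% of their values whole, the log2 difference of the sums was 0.23 for H1 and -0.02 for H4. The H1 sum then rests on Hist1h1a and Hist1h1b, at means of 0.0281 and 1.11 CPM, without the higher Hist1h1c, Hist1h1d and Hist1h1e. The H4 sum rests on Hist2h4 and Hist4h4, at means of 1.34 and 1.09 CPM.

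**Figure D5:**
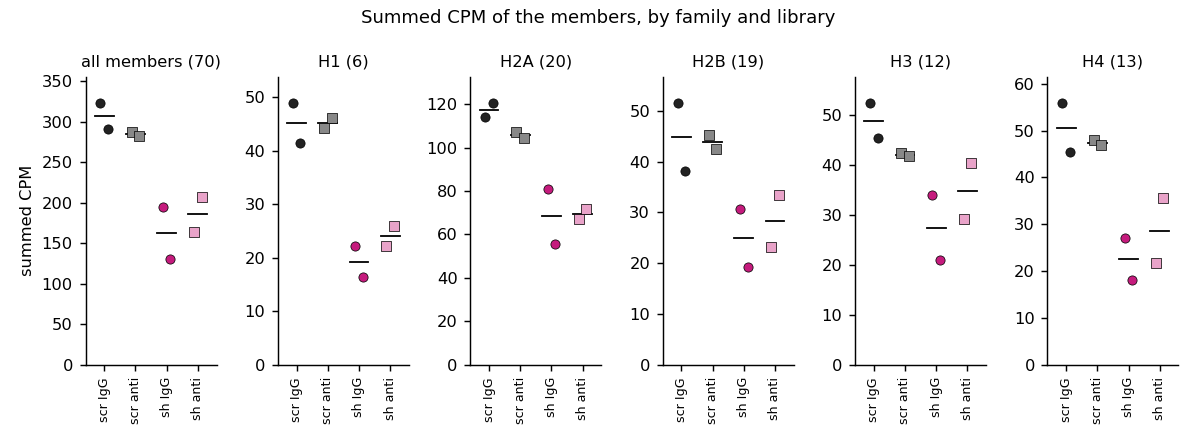
Summed CPM of the members for all 70 and by family, with a point for each library and a bar at the mean of the 2 libraries of a group (scr, scramble, sh, shMCT-1, anti, anti-IL-6R), from 0. The shMCT-1 libraries lie below the scramble libraries in every panel, from 130 to 207 against 282 to 323 for all members, and shMCT-1 + IgG replicate 2 is the lowest throughout.

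Within IgG 16 members were lower in shMCT-1 and none was higher, against 54.4% of all tested genes called, 26.2% lower and 28.3% higher. Within anti-IL-6R 10 were lower and 2 higher, Hist1h4b and Hist2h2bb, against 54.3% of all tested genes called, 27.3% lower and 26.9% higher. The count within anti-IL-6R fell to 7 without scramble + anti-IL-6R replicate 1. The members' median log2 fold change was -0.64 within IgG and -0.25 within anti-IL-6R, and both moved with the library left out. The first was -0.32 without shMCT-1 + IgG replicate 2, -0.39 without scramble + IgG replicate 1 and -0.99 without shMCT-1 + IgG replicate 1. The second was above 0, at 0.08 with 29 members above and 27 below 0, without shMCT-1 + anti-IL-6R replicate 1, at -0.06 without scramble + anti-IL-6R replicate 1 and at -0.63 without shMCT-1 + anti-IL-6R replicate 2, so that its direction rests on 1 library. Of the 56 tested members 36 had their lowest shMCT-1 value in shMCT-1 + IgG replicate 2 and 33 their highest in shMCT-1 + anti-IL-6R replicate 2. Hist1h2bp, Hist2h2be, Hist1h4i, Hist1h3d, Hist1h3g, Hist1h1c and Hist3h2a were lower in both treatments, with log2 fold changes of -3.67, -2.31, -1.93, -2.38, -1.85, -1.28 and -1.17 within IgG and of -2.94, -2.14, -2.20, -1.68, -1.51, -1.04 and -1.12 within anti-IL-6R. Of the family sums, H3 was lower within IgG (-0.79 ± 0.21) and not called within anti-IL-6R (-0.21 ± 0.20, adjusted p = 0.39), and the interaction for H3 was 0.58 ± 0.29 (adjusted p = 1.00).

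The comparison of anti-IL-6R with IgG called no member (edgeR, adjusted p under 0.05), within scramble (0% of all tested genes), within shMCT-1 (0%) or across both backgrounds (0%), nor did the interaction of background and treatment (0%). DESeq2 called none in any of the 4 comparisons, and edgeR's exact test, which cannot be applied to the interaction, none in the other 3. At an unadjusted p under 0.05 the test found 1 member within scramble, Hist1h3h, against 1.31% of all tested genes, and 5 within shMCT-1 against 3.98%. It found 3 members across both backgrounds against 2.79%, and 3 for the interaction against 2.48%. None of these shares is adjusted for the number of genes tested.

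Hist1h3h, an H3 gene in the Hist1 locus, was at 4.65 and 4.64 CPM in scramble + IgG, at 2.7 and 2.91 in scramble + anti-IL-6R, at 3.20 and 2.12 in shMCT-1 + IgG and at 1.08 and 2.32 in shMCT-1 + anti-IL-6R. In scramble both antibody libraries were below both IgG libraries, and in shMCT-1 the ranges overlapped. The log2 fold change of anti-IL-6R was -0.74 ± 0.31 within scramble (unadjusted p = 0.0361 from edgeR's quasi-likelihood test, adjusted p = 1.00) and -0.64 ± 0.35 within shMCT-1 (adjusted p = 1.00). For shMCT-1 across both treatments it was -0.71 ± 0.22 (adjusted p = 0.0146). Only 8.01% of its 100-base windows were its own, 60.3% being shared with Hist1h3b.

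Within shMCT-1 the 5 members were Hist1h3i, Hist1h3f, Hist1h4b, Hist1h1d and Hist1h2af, with log2 fold changes of 0.96, 1.09, 0.81, 0.64 and -0.84 under anti-IL-6R. The median of the members was 0.32 within shMCT-1 and -0.16 within scramble, and the interaction had a median of 0.46 with 49 of 56 above 0, compared with -0.01 for all genes. Leaving out 1 library moved them all. The median within shMCT-1 was 0.00 without shMCT-1 + IgG replicate 2, -0.01 without shMCT-1 + anti-IL-6R replicate 2 and 0.64 without shMCT-1 + IgG replicate 1. The median within scramble was 0.04 without scramble + IgG replicate 1 and -0.31 without scramble + IgG replicate 2. That of the interaction was 0.15 without shMCT-1 + anti-IL-6R replicate 2, 0.21 without shMCT-1 + IgG replicate 2, 0.70 without shMCT-1 + IgG replicate 1 and 0.83 without shMCT-1 + anti-IL-6R replicate 1. The members share libraries and reads and are no replicates of a condition.

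Many H2A and H2B genes stand head to head across a short promoter, and 14 such pairs with a gap of 172 to 305 bases were found, 8 of them with both genes tested. Levels within a pair, as means over all 8 libraries, ranged from close to far apart. Per kb of exon Hist1h2ag was at 1.95 CPM and Hist1h2bj at 2.81, and Hist2h2ac at 2.73 and Hist2h2be at 2.45. The mean of Hist2h2be joins a high scramble level and a low shMCT-1 level. Within either background its level was therefore not near that of Hist2h2ac. At the extremes Hist1h2ap was at 122.9 CPM and its partner Hist1h2br at 0.710, Hist3h2a at 3.14 and Hist3h2bb-ps, a pseudogene, at 0.0709, and Hist1h2ac at 0.416 and Hist1h2bc at 5.77. Hist2h2be was lower in shMCT-1 by a log2 value of -2.22, while Hist2h2ac, 238 bases away, was at 0.09 ± 0.27 (adjusted p = 0.769), and it was at 1.94, 1.62, 1.04 and 1.07 CPM in scramble and at 1.82, 1.36, 0.753 and 1.77 in shMCT-1. Hist1h2an and Hist1h2bp were both called lower, as were Hist1h2ac and Hist1h2bc, but Hist1h2bp and Hist1h2ac passed the filter through the scramble libraries alone, so that these pairs are no support for a shared change, and Hist1h2bg was lower while Hist1h2ae was not called (0.02 ± 0.23). Differences between the genes of a pair were not tested.

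By annotated 3′ end, 11 of the 24 tested members with at least 100 bases past the stem-loop or stop codon were called lower in shMCT-1 and none higher, and their median was -0.44 on the log2 scale. Of the 31 tested members with a shorter end 6 were lower and 2 higher, with a median of -0.21. Among all tested genes 34% were lower and 35% higher. The remaining tested member, Hist1h2al, has no coding annotation and was lower, but passed the filter through the scramble libraries alone. The members of the first class include Hist1h4i, Hist1h1c, Hist1h3d, Hist2h2be and Hist3h2a, and those of the second Hist1h2ap, Hist1h2bp and Hist1h3g. Of the lower calls, Hist1h2ac in the first class and Hist1h2bl and Hist1h2bp in the second passed the filter through the scramble libraries alone. The classes also differ in how many reads are their own, with 81.0% against 47.7% of windows unique in the median, and the difference between them was not tested.

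The genes that make and end histone messages were given as a list of 15, of which 14 were tested, 7 lower and 2 higher in shMCT-1. Slbp, whose product binds the stem-loop, was at 126.8 ± 11.9 CPM in scramble and 105.5 ± 3.13 in shMCT-1 (SD, n = 4 each), a log2 fold change of -0.21 ± 0.07 (adjusted p = 0.0126). Npat, the coactivator of histone transcription, was at 40.7 ± 3.99 and 24.4 ± 1.95 CPM (-0.69 ± 0.09, adjusted p = 3.86e-05). Casp8ap2, the histone locus body protein FLASH, had the lowest value, -1.08 ± 0.12, and Lsm10, a subunit of the U7 snRNP, the highest, 0.80 ± 0.11. Among all tested genes 34% were lower and 35% higher.

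The histone variants, most of them replication-independent with messages that carry poly(A) tails, were mostly far more abundant. H2afz, H3f3b and H1f0 had means of 540.9, 726.7 and 600.9 CPM. Of 11 variants 9 were tested, 3 higher and 3 lower in shMCT-1. H1f0 rose the most, from 441 ± 8.58 to 761 ± 34.2 CPM (0.84 ± 0.05, adjusted p = 4.21e-07), and H2afj fell the most, from 153.6 ± 5.44 to 82.8 ± 8.39 CPM (-0.84 ± 0.07, adjusted p = 2.31e-06). The sum of all 70 members was 130 to 323 CPM. Of 18 histone chaperones 7 were lower and 4 higher, with Atrx lowest (-1.16 ± 0.14) and Daxx highest (0.46 ± 0.06). Of 18 genes of S phase 6 were lower and 4 higher, with Mcm6 highest (0.39 ± 0.05). Over all tested genes the shares were 34% lower and 35% higher. In a culture, fewer cells in S phase and less message in each cell cannot be told apart. In the comparisons of anti-IL-6R with IgG none of these 4 lists had a called gene.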

How the data were processed

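Poly(A)-selected RNA of 8 libraries (4 groups of 2) was sequenced as paired reads of 100 bases. The authors used cutadapt 1.18 for trimming and STAR 2.7.0d for alignment (mm10, GENCODE M19) and deposited RSEM expected counts per gene, not normalized. The kit adds molecular identifiers, and whether they were used, and the strand setting, are not given in the sources used here. Expected counts were rounded. Genes above 1 CPM in at least 2 libraries (12704) were scaled by TMM and tested over all 8 libraries with edgeR 4.0.16 (R 4.3.3) quasi-likelihood functions, with Benjamini-Hochberg adjustment over all of them and a call at an adjusted p under 0.05, and SEs were taken as the log2 fold change over the root of F. CPM are per 1000000 of the library total, 19839299 to 33063570 counts, so that 1 CPM is 19.84 to 33.06 counts.

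Members follow the symbol rule, and values by library were given for the 12 highest members, the 3 highest and 3 lowest log2 fold changes and Hist1h3h. Members and lists were chosen with earlier results of these data known, and so were the head-to-head partners, the near-identical copies and the genes sharing bases with members (chosen after values were seen). All 70 members were found in GENCODE M21 on GRCm38, the annotation of lengths, windows and positions, which is not the release the authors counted with. Alternatives were RLE size factors, 3 other filters, DESeq2 1.42.0, edgeR's exact test, an unadjusted p, rounding down, a replicate block, family sums and leaving out each library. The test was checked on simulated counts.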

Additional observations from a re-analysis of the deposited data

How the results depend on the processing

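The counts of members called for shMCT-1 across both treatments and within IgG stayed within 1.5 times under RLE size factors, all filters, DESeq2, the exact test, rounding down and an unadjusted p. Within anti-IL-6R the count of 12 became 19 without a filter and 19 with the exact test. Summed into 5 families, 5 sums were called across both treatments, 5 within IgG and 4 within anti-IL-6R. For anti-IL-6R against IgG the unadjusted counts were 1 within scramble, 5 within shMCT-1, 3 across both backgrounds and 3 for the interaction, and without a filter 2 members were called within shMCT-1 and 1 in the interaction. Leaving out each library in turn, the counts ranged from 18 to 28 across both treatments, from 12 to 20 within IgG and from 7 to 15 within anti-IL-6R, and stayed at 0 for the other comparisons.

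The replicate numbers do not pair the libraries: deviations of same-numbered libraries correlated between -0.08 and 0.106. With the replicate block the counts were 20 across both treatments, 15 within IgG, 11 within anti-IL-6R and 0 in the others. The log2 fold changes that changed sign belonged to members that were not called. Leaving out each library in turn, they ranged from -0.185 to 0.151 for Hist1h2ae, from -0.251 to 0.471 for Hist2h2aa1, from -0.135 to 0.539 for Hist1h4f and from -0.211 to 0.246 for Hist2h2ac. Hist1h2ae was also at -0.006 with the filter at 7 libraries, and Hist2h2aa1 at 0.000 with the replicate block. Summed over members with at least 90% of values whole, the log2 difference was 0.23 for H1 (-1.01 over all its members), -1.23 for all families (-0.72), -2.16 for H2B (-0.69) and -0.02 for H4 (-0.89). Of the 7 such members above 0 in any library, 4 were tested and only Hist2h2be was called lower. The values for H2B and for all families therefore rest largely on that gene. The causes were not tested. A member at 1 CPM rests on 19.84 to 33.06 counts, which limits what can be seen of it.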
